A study of Mus musculus with 15 samples.

Results

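Transcripts of amino acid, peptide and nucleoside transporters were followed in cultured mouse microglia that had been made from embryonic stem cells, in 4 conditions. The genes were chosen by name. They are the genes of the array annotation whose symbol belongs to the solute carrier families Slc1a, Slc3a, Slc6a, Slc7a, Slc15a, Slc28a, Slc29a, Slc36a, Slc38a or Slc43a, leaving out the arginine transporter gene Slc7a2 and the cystine transporter gene Slc7a11. This gave 68 genes with 129 probes, of 19057 annotated genes and 45281 probes in all. A probe counted as measured if its detection p fell below 0.01, taken as above background, on 3 or more of the 15 arrays. This left 25 of the 68 transporter genes (36.8%) against 44.9% of all annotated genes. Values are normalized log2 probe signals, and 1 probe, the one with the highest mean, stood for a gene.

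The cells were made from C57BL/6 embryonic stem cells and kept in a defined medium supplemented with glutamine. The untreated cells were represented by 6 arrays. Treated cells were exposed for 24 h to interleukin-4 (IL-4, 100 U/ml), to lipopolysaccharide with interferon-γ (LPS, 500 ng/ml, and IFN-γ, 20 ng/ml, together LPS/IFN-γ) or to TGF-β, transforming growth factor-β, at 50 ng/ml, with 3 arrays each. The labels do not say whether each array came from its own culture, and the p-values therefore rest on array-to-array variation that may be technical. A bulk RNA signal cannot tell fewer cells of a type from less RNA per cell.

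Solute carriers move amino acids and nucleosides across the plasma membrane and out of lysosomes, and many couple this movement to sodium, protons or a counter-transported amino acid. Microglia take up glutamate, glycine and other small solutes around synapses, and they recycle amino acids and nucleosides from the material they digest in lysosomes. Transcription of several transporters is coupled to the amino acid response, in which the kinase GCN2 and the transcription factor ATF4 raise genes of amino acid uptake and synthesis when amino acids run short.

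The microglial label was examined first. Of 14 markers of microglia and macrophages 11 were measured, including Csf1r, Aif1, Trem2, Spi1 and Tyrobp on 15 arrays. Cx3cr1 and Tmem119 were above background on only 3 arrays and P2ry12 on 0. No marker of neurons, oligodendrocytes, fibroblasts or endothelial cells passed the filter, and the astrocyte markers Gfap, Aqp4, S100b, Gja1 and Slc1a3 were above background on 0 arrays, as were Nanog and Sox2 of stem cells. The summed linear signal of the 11 microglial markers was 18930 to 20900 on untreated arrays, 21320 to 23920 with IL-4, 17150 to 19670 with LPS/IFN-γ and 24920 to 26060 with TGF-β. Of 8 stem cell markers 2 were measured, Klf2 and Pou5f1, and they summed to 313 to 372, 448 to 564, 673 to 1290 and 188 to 205 in the same order. Of 8 astrocyte markers 3 were measured, Aldoc, Aldh1l1 and the transporter gene Slc1a2, with sums of 3781 to 4308, 4235 to 4666, 3354 to 3933 and 4488 to 4991. The part of these sums in the transporter results was not tested. The arrays had 13601 to 14789 probes above background. LPS/IFN-γ replicate 3 stood apart from its group, where 145 genes lay 2-fold or more from their level on the remaining 2 arrays, against 1 to 33 genes for any other array. None of the 25 transporters was among its 145 genes.

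Many transporters were not measurable in these cells. Of the 43 genes outside the filter, 37 had no probe above background on any array. Slc43a2, Slc6a15 and Slc7a13 reached 1 array, and Slc1a7, Slc38a4 and Slc7a7 reached 2. The genes just inside the filter were Slc6a13 on 4 arrays and Slc1a5 and Slc1a6 on 8. All 3 SLC43 genes, the concentrative nucleoside transporters Slc28a1, Slc28a2 and Slc28a3, and the dopamine, noradrenaline and serotonin transporter genes Slc6a3, Slc6a2 and Slc6a4 were among those not measured. A probe below background gives a bound and does not show that the gene is silent.

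**Figure D1:**
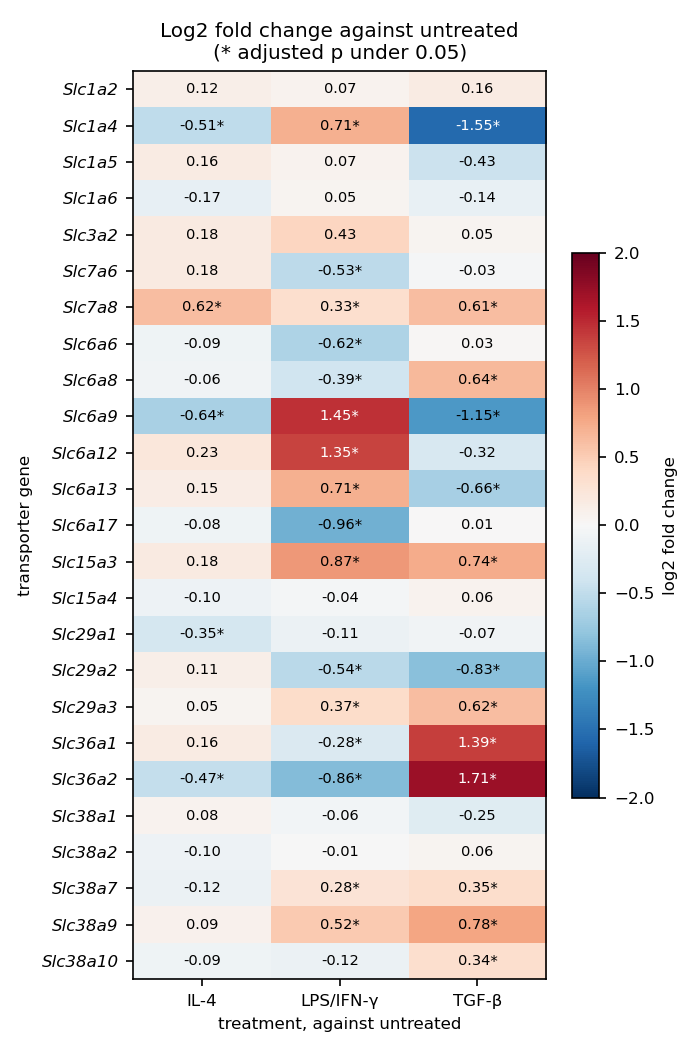
Log2 fold change of the 25 measured transporter genes (rows) against untreated cells for each treatment (columns), from 3 treated and 6 untreated arrays. Stars mark adjusted p under 0.05, red is higher and blue lower. The strongest colours are Slc6a9 and Slc6a12 with LPS/IFN-γ, Slc36a1 and Slc36a2 with TGF-β (red), and Slc1a4 and Slc6a9 with TGF-β (blue). Slc1a4 and Slc1a5 with TGF-β, and Slc6a13 with IL-4 and TGF-β, were below background on every array, and Slc6a13 was above it on only 1 of 6 untreated arrays. These cells, and all 3 of Slc6a13, are fitted sizes and not measured folds.

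LPS/IFN-γ and TGF-β moved more transporters than IL-4 did. With limma's moderated test and Benjamini-Hochberg adjustment over all 8561 measured genes, LPS/IFN-γ raised 9 and lowered 7 of 25, where 21.5% of all genes rose and 34.3% fell. TGF-β raised 9 and lowered 4, against 19.7% and 19% of all genes. IL-4 raised 1 and lowered 4, against 5.64% and 6.32%. The 3 comparisons share the untreated arrays. Without LPS/IFN-γ replicate 3 the LPS/IFN-γ count was 15 in place of 16.

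As shares of the 25 genes, 36% rose with LPS/IFN-γ and 36% with TGF-β, and 28% and 16% fell. Treated arrays lay wholly above or below untreated ones for 13 of 25 transporters with LPS/IFN-γ (52%, and 46.9% of all genes), 14 with TGF-β (56%, and 38.7%) and 6 with IL-4 (24%, and 20.1%). The median log2 fold change of the 25 genes was 0.05 in all 3 comparisons, beside -0.08, -0.00 and -0.02 for all genes with LPS/IFN-γ, TGF-β and IL-4. The median size without sign was 0.39, 0.35 and 0.15, beside 0.29, 0.21 and 0.13. Scaling arrays by their median alone shifted the median of all genes to -0.15, -0.19 and -0.11 and turned the splits of higher and lower transporters into 6 and 6, 7 and 5, and 1 and 2. With that scaling 3505, 2595 and 345 of all 8561 genes were called, of which 32.98%, 20.15% and 38.55% were higher. With cyclic loess in place of quantiles the IL-4 split was 2 and 4, where 981 of all genes were called, 59.33% of them higher.

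Slc6a9 encodes GLYT1, the sodium-coupled glycine transporter. Its untreated arrays read 9.85 to 10.08 on the log2 scale, with a median of 10.00. With LPS/IFN-γ it read 11.38, 11.44 and 11.47, and with TGF-β 8.88, 8.91 and 8.68. With IL-4 it read 9.36, 9.02 and 9.63. All LPS/IFN-γ arrays lay above and all IL-4 and TGF-β arrays below every untreated array. Slc6a9 therefore rose with LPS/IFN-γ by 1.45 ± 0.10 on the log2 scale (SE, adjusted p = 1.65e-08) and fell by 1.15 ± 0.10 with TGF-β (adjusted p = 7.08e-07) and by 0.64 ± 0.10 with IL-4 (adjusted p = 0.0011). The difference between LPS/IFN-γ and TGF-β was 2.61 (95% interval 2.35 to 2.86, adjusted p = 7.65e-11). It was called in all 15 fits that left out 1 array.

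Slc1a4 encodes ASCT1, an exchanger of alanine, serine, cysteine and threonine. Untreated arrays read 6.13 to 6.71 with a median of 6.53. The LPS/IFN-γ arrays read 7.23, 7.13 and 7.24, and the IL-4 arrays 6.15, 5.81 and 5.99. The TGF-β arrays, at 5.10, 4.75 and 4.97, were all below background. LPS/IFN-γ lay above every untreated array and TGF-β below, and IL-4 overlapped them. Slc1a4 rose with LPS/IFN-γ by 0.71 ± 0.12 on the log2 scale (adjusted p = 0.000179) and fell by 0.51 ± 0.12 with IL-4 (adjusted p = 0.0136). With TGF-β it fell at least 1.73-fold (adjusted p = 1.87e-07 for the fitted difference, not for this bound). This bound sets each TGF-β array at the lowest signal of any probe above background there. Leaving out IL-4 replicate 2 ended the IL-4 call (-0.42, adjusted p = 0.0753). Without background correction the log2 fold changes of this dim probe shrank to 0.34, -0.20 and -0.51 with LPS/IFN-γ, IL-4 and TGF-β, and all 3 were called.

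Slc1a4 and Slc6a9 were the only 2 of 25 transporters called higher with LPS/IFN-γ and lower with both IL-4 and TGF-β. Slc7a11, which the gene choice leaves out, had log2 fold changes of 1.63 ± 0.13, -0.79 ± 0.13 and -1.57 ± 0.13 with LPS/IFN-γ, IL-4 and TGF-β, all called. Slc7a2, the other gene left out, rose with LPS/IFN-γ (1.03 ± 0.26, adjusted p = 0.00323) and was not called with IL-4 (0.76, adjusted p = 0.0694) or TGF-β (0.23, adjusted p = 0.51).

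**Figure D2:**
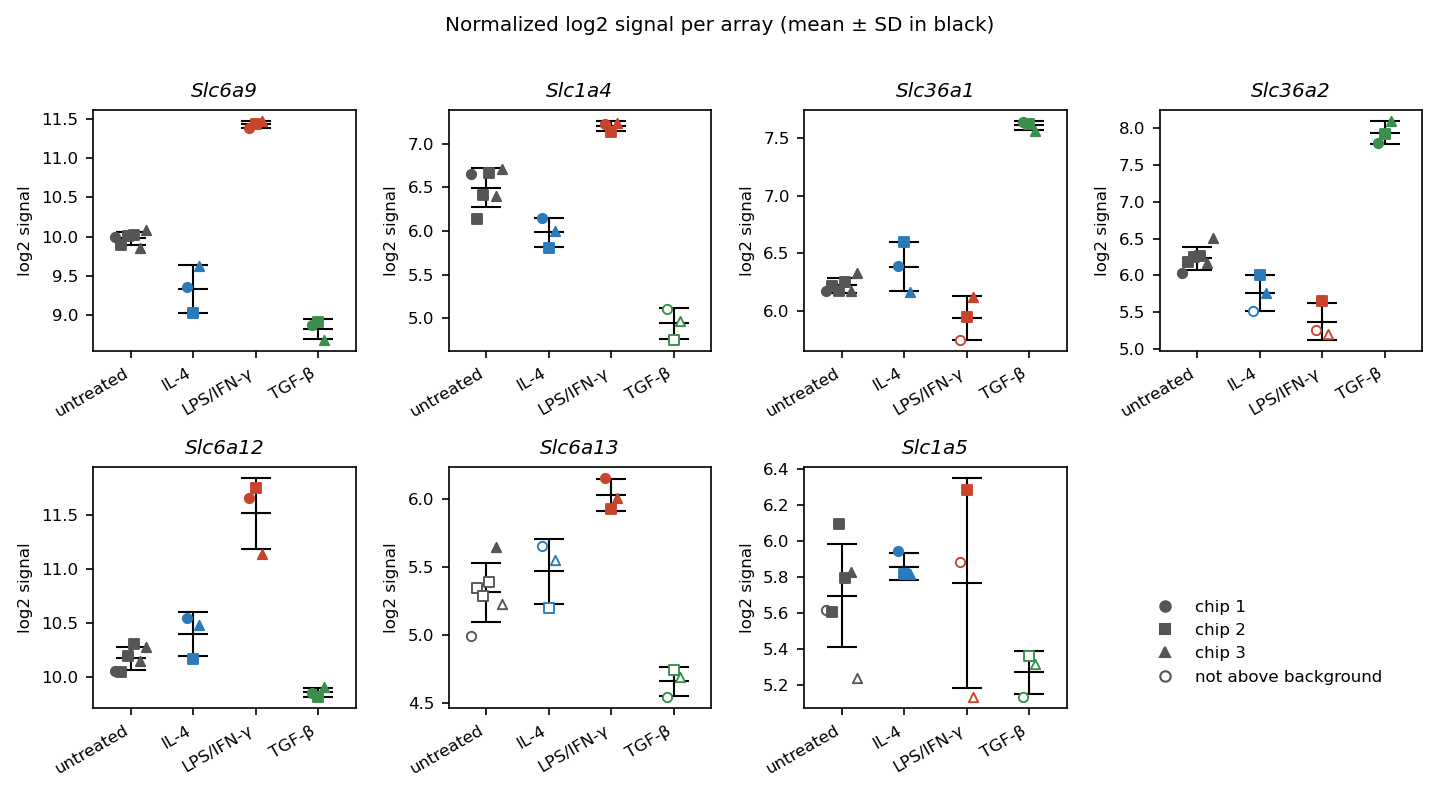
Normalized log2 signal (vertical axis) of 7 transporter genes on each of 15 arrays, by group. Each point is an array, its shape the bead chip, open points are not above background, and black bars give the mean ± SD (n = 6 untreated, 3 per treatment). Slc6a9 and Slc1a4 are highest with LPS/IFN-γ and lowest with TGF-β, Slc36a1 and Slc36a2 are highest with TGF-β, and Slc1a5 overlaps between untreated cells and each treatment.

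A promoter window of 300 bases, from 250 before to 50 after the annotated start, was available from RefSeq (GRCm38.p6) for 19 of the 25 measured genes, with 36 windows. On both strands the windows were searched for TGATGNAA, the core of the amino acid response element bound by ATF4 with C/EBP proteins. It lay in 3.969% of all 32851 windows of that length and in 1 of the 36 transporter windows, that of Slc1a4. The match starts 4 bases before the start site and lies on the opposite strand. The window, chr11:20332664-20332963 on the minus strand, is shown because it is the only one of the 36 with the element, in capitals.
Slc1a4: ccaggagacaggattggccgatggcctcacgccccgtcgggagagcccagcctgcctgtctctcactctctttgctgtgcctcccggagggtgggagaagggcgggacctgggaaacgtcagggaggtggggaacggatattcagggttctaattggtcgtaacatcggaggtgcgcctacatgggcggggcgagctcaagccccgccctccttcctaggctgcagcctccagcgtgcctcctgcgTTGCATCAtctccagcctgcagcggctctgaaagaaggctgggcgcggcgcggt

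For comparison, stretches of 40 bases around the same element (capitals, read on either strand) are given for Slc7a11 and for 4 measured genes of the amino acid response list described further on. They lie at chr3:50443656-50443695 and chr3:50443637-50443676 (Slc7a11, both on the minus strand and overlapping), chr6:7693209-7693248 (Asns, minus), chr2:152344023-152344062 (Trib3, minus), chr1:191183420-191183459 (Atf3, minus) and chr7:126625557-126625596 (Nupr1, minus). Of 22 genes of that list with a window 7 held the element, and 4.509% of all 27033 genes with a window did. Among the transporter windows the share was 2.778%, beside 3.969% of all windows. A match of letters is a description and does not show binding, and a role of ATF4 in the transporter results was not tested.
Slc1a4: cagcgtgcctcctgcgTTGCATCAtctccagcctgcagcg
Slc7a11 first: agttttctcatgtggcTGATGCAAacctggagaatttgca
Slc7a11 second: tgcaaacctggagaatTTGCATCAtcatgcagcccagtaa
Asns: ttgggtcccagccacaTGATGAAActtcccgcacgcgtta
Trib3: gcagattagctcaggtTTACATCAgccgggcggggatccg
Atf3: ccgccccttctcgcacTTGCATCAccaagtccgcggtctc
Nupr1: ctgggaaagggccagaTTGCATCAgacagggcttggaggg

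The antioxidant response element core TGACNNNGC, bound by NRF2 with small MAF proteins, lay in 9 of the 36 windows (25%, and 12.392% of all windows), in 6 genes: Slc6a9, Slc36a1, Slc29a1, Slc38a2, Slc6a13 and Slc7a6. Windows of a gene can overlap, and both Slc7a6 windows hold the same site, which is counted in each. No share of all genes is set beside the 6 genes, so the counts do not set transporters apart. The interferon-γ activated site TTCNNNGAA lay in 1 window, of Slc38a9 (8.298% of all windows). The SMAD palindrome GTCTAGAC lay in 0 (0.213% of all), and GTCT, which is contained in the palindrome, in 30 (87.982% of all windows). Both Slc6a9 windows that hold TGACNNNGC, chr4:117849100-117849399 and chr4:117855297-117855596 on the plus strand, are shown with the match in capitals, since Slc6a9 moved with every treatment.
Slc6a9 window 2: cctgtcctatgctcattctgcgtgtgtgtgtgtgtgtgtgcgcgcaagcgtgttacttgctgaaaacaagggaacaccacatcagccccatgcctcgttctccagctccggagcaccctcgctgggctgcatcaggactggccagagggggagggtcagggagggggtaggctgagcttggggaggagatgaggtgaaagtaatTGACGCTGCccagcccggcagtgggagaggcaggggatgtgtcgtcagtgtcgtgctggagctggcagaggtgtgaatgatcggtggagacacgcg
Slc6a9 window 3: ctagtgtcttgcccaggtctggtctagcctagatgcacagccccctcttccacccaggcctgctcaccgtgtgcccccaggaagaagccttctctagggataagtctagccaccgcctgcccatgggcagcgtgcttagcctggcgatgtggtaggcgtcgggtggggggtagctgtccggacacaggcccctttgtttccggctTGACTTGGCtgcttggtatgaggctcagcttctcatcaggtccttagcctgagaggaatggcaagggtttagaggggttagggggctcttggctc

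Both measured proton-coupled transporters were highest with TGF-β. Slc36a1 encodes PAT1, which carries glycine, alanine and proline with protons across plasma and lysosomal membranes. It read 6.18 to 6.33 on untreated arrays, with a median of 6.20, and 7.64, 7.63 and 7.57 with TGF-β. With LPS/IFN-γ it read 5.75, 5.95 and 6.12, of which 2 were above background, and with IL-4 6.39, 6.60 and 6.17. The TGF-β arrays lay above and the LPS/IFN-γ arrays below all untreated arrays, and IL-4 overlapped them. Slc36a1 rose with TGF-β by 1.39 ± 0.09 on the log2 scale (adjusted p = 3.12e-08). It fell with LPS/IFN-γ by 0.28 ± 0.09 (adjusted p = 0.0171), a call that was lost without LPS/IFN-γ replicate 1 (-0.19, adjusted p = 0.123) and in 6 of 15 other alternatives. With IL-4 the value was 0.16 (adjusted p = 0.277). The promoter window of Slc36a1, chr11:55204090-55204389 on the plus strand, holds TGACNNNGC in capitals and is shown as the promoter of a transporter raised by TGF-β.
Slc36a1: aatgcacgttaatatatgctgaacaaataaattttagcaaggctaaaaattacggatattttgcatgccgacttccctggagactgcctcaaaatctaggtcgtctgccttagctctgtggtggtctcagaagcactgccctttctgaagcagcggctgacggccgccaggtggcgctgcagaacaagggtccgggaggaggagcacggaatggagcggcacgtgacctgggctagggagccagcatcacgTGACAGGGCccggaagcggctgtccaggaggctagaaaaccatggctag

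Slc36a2 encodes PAT2, a related transporter of glycine, alanine and proline. Untreated arrays read 6.03 to 6.50 with a median of 6.22. The TGF-β arrays read 7.80, 7.92 and 8.10. The IL-4 arrays read 5.51, 6.01 and 5.77, with 2 above background, and the LPS/IFN-γ arrays 5.26, 5.66 and 5.20, with 1 above background. All TGF-β arrays lay above, and all IL-4 and LPS/IFN-γ arrays below, every untreated array. Slc36a2 rose with TGF-β by 1.71 ± 0.13 (adjusted p = 1.1e-07) and fell by 0.86 ± 0.13 with LPS/IFN-γ (adjusted p = 4.31e-05) and by 0.47 ± 0.13 with IL-4 (adjusted p = 0.026). Both falls are fitted sizes that include arrays not above background. Leaving out IL-4 replicate 1 ended the IL-4 call (-0.35, adjusted p = 0.152), as did leaving out IL-4 replicate 3 (-0.47, adjusted p = 0.083) and 3 of 15 other alternatives. Its LPS/IFN-γ to TGF-β difference of -2.57 (95% interval -2.88 to -2.25, adjusted p = 1.06e-09) is likewise a fitted size. Without background correction the rises of Slc36a1 and Slc36a2 with TGF-β were 0.69 and 0.90, both still called, and the log2 fold change of Slc36a2 with LPS/IFN-γ was -0.28 (adjusted p = 0.00069). In the RefSeq gene order Slc36a3, Slc36a2 and Slc36a1 follow each other on chromosome 11. The Slc36a3 probe was above background on 0 arrays.

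The SLC6 family held both rises and falls. Slc6a12 encodes BGT1, a carrier of betaine and GABA used in osmotic adaptation. It read 10.05 to 10.31 on untreated arrays (median 10.17) and 11.66, 11.75 and 11.14 with LPS/IFN-γ, well above all other arrays. With IL-4 it read 10.55, 10.17 and 10.48, and with TGF-β 9.85, 9.82 and 9.91. It rose with LPS/IFN-γ by 1.35 ± 0.12 (adjusted p = 2.27e-07). The TGF-β arrays lay below every untreated array, but the difference of -0.32 ± 0.12 missed the threshold (adjusted p = 0.0511) and passed it in 11 of 15 alternatives and in 4 of 15 fits that left out 1 array (adjusted p = 0.00921 without LPS/IFN-γ replicate 3). With IL-4 the value was 0.23 (adjusted p = 0.244).

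Slc6a13, its neighbour on chromosome 6, encodes GAT2, a GABA and taurine carrier. It read 4.99 to 5.65 on untreated arrays (median 5.32, 1 of 6 above background). The IL-4 arrays read 5.66, 5.20 and 5.56 and the TGF-β arrays 4.54, 4.75 and 4.69, all below background. All 3 LPS/IFN-γ arrays were above background, at 6.16, 5.93 and 6.01, and lay above every other array. It passed the filter only through its LPS/IFN-γ arrays, so its being higher there was fixed by the filter, and no fold or p is given. The calls of Slc6a13 are part of the counts above and of those between treatments.

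Slc6a6, the taurine transporter gene, and Slc6a8, the creatine transporter gene, had bright probes. Slc6a6 read 12.85 to 13.08 on untreated arrays and 12.46, 12.32 and 12.25 with LPS/IFN-γ, a fall of 0.62 ± 0.08 on the log2 scale (adjusted p = 7.41e-06). Slc6a8 read 11.94 to 12.13 on untreated arrays, 11.68, 11.76 and 11.49 with LPS/IFN-γ, and 12.69, 12.71 and 12.64 with TGF-β. The creatine transporter thus fell by 0.39 ± 0.07 with LPS/IFN-γ (adjusted p = 0.000237) and rose by 0.64 ± 0.07 with TGF-β (adjusted p = 5.5e-06), with no overlap with untreated arrays in either case. Slc6a17, which encodes a vesicular carrier of neutral amino acids known from neurons, read 9.76 to 9.99 on untreated arrays and 8.81, 8.88 and 8.97 with LPS/IFN-γ. Its fall of 0.96 ± 0.07 (adjusted p = 1.63e-08) rests on 1 probe. A second, dimmer probe gave -0.08 ± 0.27 (adjusted p = 0.827 over all probes).

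Among the SLC1 family, Slc1a4 was the only member called. Slc1a5 encodes ASCT2, a glutamine exchanger. It read 5.24 to 6.09 on untreated arrays (4 of 6 above background), 5.94, 5.82 and 5.81 with IL-4, 5.88, 6.28 and 5.13 with LPS/IFN-γ (1 above background), and 5.13, 5.36 and 5.32 with TGF-β (0 above). The groups overlapped with untreated in each case, and no comparison with untreated was called, with 95% intervals of the log2 difference from untreated of -0.27 to 0.59, -0.36 to 0.50 and -0.85 to 0.00 with IL-4, LPS/IFN-γ and TGF-β. With LPS/IFN-γ replicate 3 left out, the TGF-β value was called lower than untreated (adjusted p = 0.0281) and lower than LPS/IFN-γ (adjusted p = 0.00212), and with untreated replicate 6 left out it was called lower than untreated (adjusted p = 0.0456). With all arrays kept, the same TGF-β calls were made with array weights (adjusted p = 0.0146 and 0.00394), and the former also in a fit of the 2 groups alone (adjusted p = 0.0398). Slc1a5 was at least 1.11-fold higher with IL-4 than with TGF-β, with no overlap. The fitted difference was not called (adjusted p = 0.0686) but was in 3 of 15 alternatives and in 2 of 15 fits that left out 1 array. The glutamate transporter genes Slc1a2 (GLT-1) and Slc1a6 (EAAT4) were not called either, with log2 fold changes between -0.17 and 0.16. Of 5 probes of Slc1a2 only 2 were measured, and the rest were above background on 0 arrays. The probe of Slc1a3, which encodes the glutamate transporter GLAST, was above background on 0 arrays.

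Heteromeric transporters pair a heavy chain, which brings the complex to the cell surface, with a light chain that carries the amino acids. Slc3a2, the shared heavy chain CD98, was not called in any comparison, and its log2 fold changes were 0.18, 0.43 and 0.05 with IL-4, LPS/IFN-γ and TGF-β (SE 0.25). Its probe was dim, at 5.58 to 6.60 on untreated arrays (5 of 6 above background), with 2 of 3 IL-4 arrays above background. The LPS/IFN-γ rise was called in 1 of 15 alternatives, the authors' log2 values (0.19, adjusted p = 0.0287). Slc7a8, the light chain LAT2 for neutral amino acids, read 9.46 to 9.69 on untreated arrays. It read 10.16, 10.24 and 10.12 with IL-4, 9.90, 9.87 and 9.86 with LPS/IFN-γ, and 10.14, 10.27 and 10.09 with TGF-β. Every treated array lay above every untreated one, and the log2 fold changes were 0.62, 0.33 and 0.61 (SE 0.07, adjusted p = 2.59e-05, 0.000706 and 5.2e-06). It was the only one of the 25 called higher with IL-4, although Slc15a3 was also called in 3 of 15 alternatives. Its second probe gave 0.36 with IL-4 (adjusted p = 0.0441), -0.11 with LPS/IFN-γ (adjusted p = 0.39) and 0.27 with TGF-β (adjusted p = 0.0664), so only the IL-4 rise was called by both probes. The LPS/IFN-γ call was also lost when arrays were scaled by their median alone (adjusted p = 0.165). Slc7a6, the light chain y+LAT2, fell with LPS/IFN-γ from 7.70 ± 0.05 (SD, n = 6) to 7.17 ± 0.06 (n = 3, adjusted p = 1.18e-05).

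Of both measured SLC15 genes only Slc15a3 was called against untreated. It encodes PHT2, which moves histidine and peptides out of endolysosomes, and it read 11.85 to 11.94 on untreated arrays, 12.81, 12.82 and 12.65 with LPS/IFN-γ, and 12.70, 12.60 and 12.59 with TGF-β. The rises were 0.87 ± 0.07 (adjusted p = 3.29e-08) and 0.74 ± 0.07 (adjusted p = 6.7e-07), and with IL-4 the value was 0.18 (adjusted p = 0.0978) with no overlap with untreated arrays. Its relative Slc15a4 was not called in any comparison (-0.10, -0.04 and 0.06 with IL-4, LPS/IFN-γ and TGF-β).

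Slc38a9, the lysosomal arginine-sensing transporter that acts on mTORC1, read 6.50 to 6.99 on untreated arrays, 7.49, 6.90 and 7.24 with LPS/IFN-γ, and 7.44, 7.52 and 7.45 with TGF-β. One LPS/IFN-γ array lay within the untreated range, and the TGF-β arrays lay above it. Slc38a9 rose by 0.52 ± 0.13 (adjusted p = 0.00266) and 0.78 ± 0.13 (adjusted p = 0.000189). The LPS/IFN-γ rise was called by all 3 of its probes, the TGF-β rise by 2, since 1 probe gave 0.25 (adjusted p = 0.157). Slc38a7, a lysosomal glutamine carrier, rose by 0.28 ± 0.06 with LPS/IFN-γ and 0.35 ± 0.06 with TGF-β (adjusted p = 0.000594 and 0.000147), and both calls were lost when arrays were scaled by their median alone (adjusted p = 0.269 and 0.505).

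Of the other SLC38 genes only Slc38a10 was called against untreated. It rose with TGF-β by 0.34 ± 0.11 (adjusted p = 0.0224), which was lost without TGF-β replicate 1 (0.27, adjusted p = 0.121) or 3 (0.34, adjusted p = 0.058). Its second probe gave 0.37 ± 0.21 (adjusted p = 0.195). The plasma membrane glutamine carrier genes Slc38a1 and Slc38a2 were not called against untreated, with fitted values from -0.25 to 0.08. One other probe of Slc38a2 gave -0.67 ± 0.15 with LPS/IFN-γ (adjusted p = 0.00197), where the probe that stood for the gene gave -0.01.

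**Figure D3:**
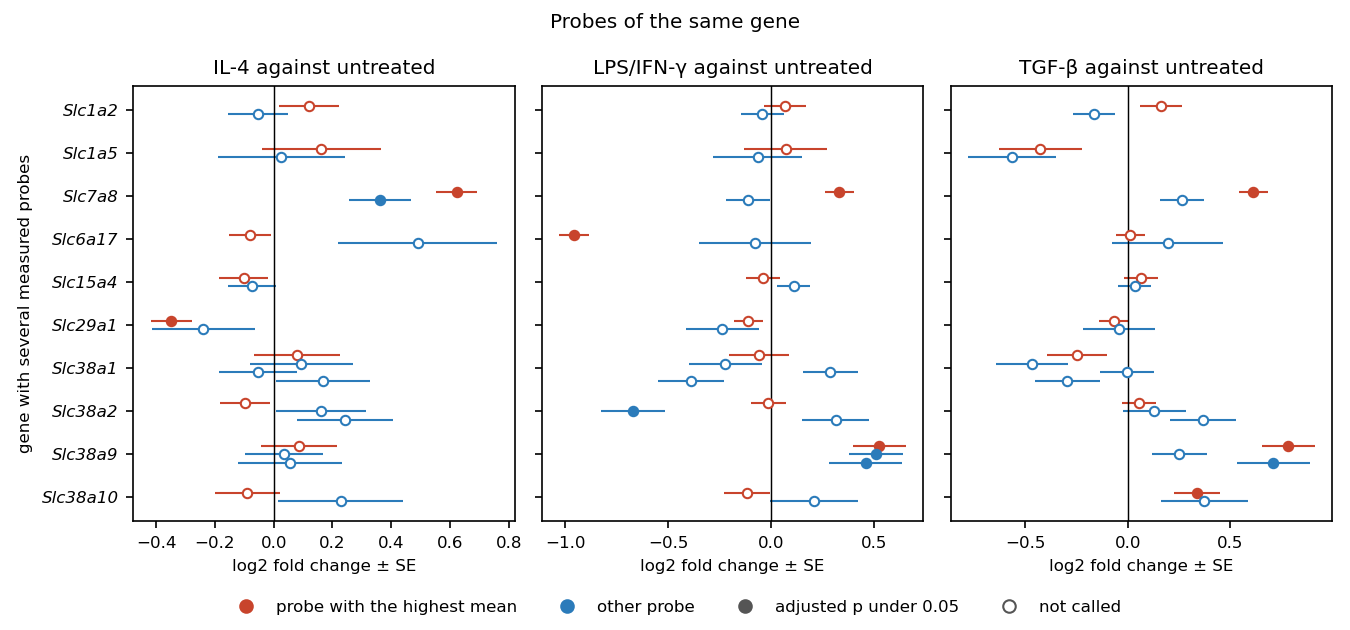
Log2 fold change ± SE (horizontal axis) of each measured probe of the 10 transporter genes with several probes, in 3 panels for IL-4, LPS/IFN-γ and TGF-β against untreated. Red is the probe with the highest mean, blue are other probes, and filled points had adjusted p under 0.05 over all probes. Slc6a17, Slc7a8 and Slc38a2 show probes that differ in call with LPS/IFN-γ.

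The equilibrative nucleoside transporters carry nucleosides down their gradient. Slc29a1, which encodes ENT1 of the plasma membrane, read 10.35 to 10.55 on untreated arrays and 10.01, 10.14 and 10.17 with IL-4, a fall of 0.35 ± 0.07 (adjusted p = 0.00367). The call was lost in 3 of 15 alternatives, and a second probe gave -0.24 ± 0.18 (adjusted p = 0.424). Slc29a2 (ENT2) read 6.51 to 7.18 on untreated arrays, 6.24, 6.13 and 6.69 with LPS/IFN-γ and 5.68, 6.08 and 6.44 with TGF-β, of which 2 were above background. LPS/IFN-γ overlapped the untreated range and TGF-β lay below it. Slc29a2 fell by 0.54 ± 0.17 with LPS/IFN-γ (adjusted p = 0.0135) and by 0.83 ± 0.17 with TGF-β (adjusted p = 0.00123), and the former call was lost without LPS/IFN-γ replicate 1 (-0.49, adjusted p = 0.0565) or 2 (-0.43, adjusted p = 0.075).

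Slc29a3, which encodes ENT3 of lysosomes, read 9.71 to 10.05 on untreated arrays, 10.21, 9.91 and 10.77 with LPS/IFN-γ and 10.66, 10.47 and 10.52 with TGF-β. It rose with TGF-β by 0.62 ± 0.13 (adjusted p = 0.00179). The rise with LPS/IFN-γ of 0.37 ± 0.13 (adjusted p = 0.0288) rested on the array that stood apart, since without replicate 3 it was 0.14 (adjusted p = 0.268), and it was also lost without untreated replicate 2 (adjusted p = 0.0567) and in 4 of 15 alternatives.

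Directly between treatments, LPS/IFN-γ and TGF-β differed for 12 of 25 transporters, with 4 higher and 8 lower with LPS/IFN-γ, against 23.3% and 32.4% of all genes. Slc6a9, Slc1a4 and Slc6a12 were higher with LPS/IFN-γ, and the fourth call is Slc6a13, which the filter admitted through its LPS/IFN-γ arrays. Slc1a4 was at least 2.82-fold higher (adjusted p = 2.96e-09 for the fitted difference, not for this bound). Slc6a12 differed by 1.66 on the log2 scale (95% interval 1.36 to 1.96, adjusted p = 9.02e-08). Slc36a2, Slc36a1, Slc6a8, Slc6a17, Slc6a6, Slc7a6, Slc38a10 and Slc7a8 were lower with LPS/IFN-γ, Slc36a1 by a log2 difference of -1.67 and Slc6a8 of -1.03 (adjusted p = 3.91e-09 and 4.24e-08). Slc15a3, which rose with both, differed by 0.13 (95% interval -0.03 to 0.29, adjusted p = 0.157), and Slc38a9 by -0.26 (-0.57 to 0.05, adjusted p = 0.147). Scaled by the median alone the split was 4 and 5, where 3308 of 8561 genes were called, 57.89% of them higher with LPS/IFN-γ. Without LPS/IFN-γ replicate 3 there were 14 calls, with Slc1a5 and Slc29a3 added.

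**Figure D4:**
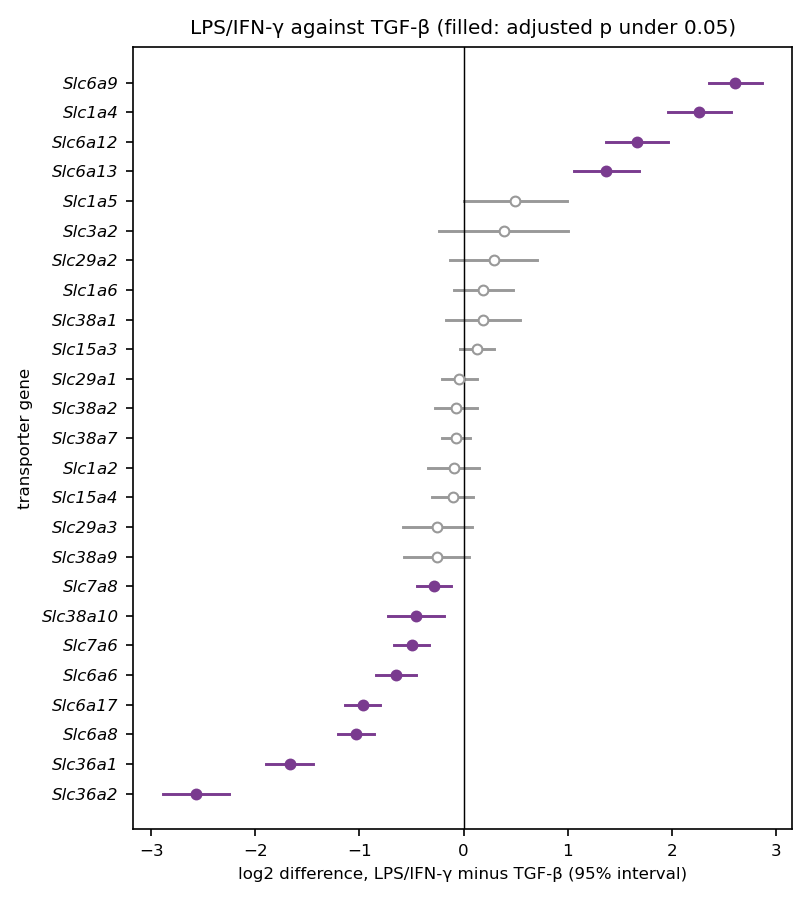
Log2 difference between LPS/IFN-γ and TGF-β (horizontal axis, 3 arrays each) for the 25 measured transporter genes (rows), with the 95% interval as a line. Filled points had adjusted p under 0.05. The Slc6a9 point lies at 2.61 and the Slc36a2 point at -2.57. Slc1a4, Slc1a5 and Slc6a13 were below background on all TGF-β arrays, and Slc36a2 on 2 of 3 LPS/IFN-γ arrays, so their points are fitted sizes.

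LPS/IFN-γ and IL-4 differed for 16 transporters, 8 higher and 8 lower with LPS/IFN-γ, against 21.5% and 29.3% of all genes. Some calls were not stable. Slc36a2 was called in 7 of 15 alternatives and in 11 of 15 fits that left out 1 array. These counts were 13 and 11 for Slc38a9, and 12 and 13 for Slc29a1. Scaling by the median alone ended 6 of the 16 calls, and 2787 of 8561 genes were called with it. Slc6a9 differed by 2.10 ± 0.12 (adjusted p = 1.36e-09), Slc1a4 by 1.22 ± 0.14 (adjusted p = 3.88e-06) and Slc6a12 by 1.12 ± 0.14 (adjusted p = 8.62e-06). IL-4 and TGF-β differed for 14, of which 5 were higher and 9 lower with IL-4, against 13.8% and 16.6%. Slc36a2 and Slc36a1 were lower with IL-4 by log2 differences of -2.18 ± 0.15 and -1.22 ± 0.11 (adjusted p = 3.59e-08 and 6.22e-07). Slc1a4 was at least 1.21-fold higher with IL-4 (adjusted p = 5.2e-05 for the fitted difference, not for this bound). The 5 include Slc6a13, which was below background in both groups. Scaled by the median alone the split between IL-4 and TGF-β was 5 and 4. With that scaling 1294 of 8561 genes were called, 60.05% of them higher with IL-4. In all 6 comparisons every called transporter had the same direction within each of the 3 bead chips. These are the arrays that gave the calls, so the agreement is no separate support. Some transporters that were not called agreed too, such as Slc7a6 with IL-4 against untreated (0.13, 0.10 and 0.28).

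The genes of the amino acid response moved with opposite majorities under LPS/IFN-γ and TGF-β. Of 24 listed genes 19 were measured, and 16 rose and 0 fell with LPS/IFN-γ, while 3 rose and 12 fell with TGF-β and 1 rose and 6 fell with IL-4. Of all genes 21.5% rose and 34.3% fell with LPS/IFN-γ, 19.7% and 19% with TGF-β, and 5.64% and 6.32% with IL-4. Their median log2 fold changes were 0.55, -0.69 and -0.14, beside -0.08, -0.00 and -0.02 for all genes. With LPS/IFN-γ the highest were Trib3 (2.73 ± 0.16), a pseudokinase induced by ATF4, and Ddit3 (2.20 ± 0.12), which encodes the stress factor CHOP. With TGF-β the lowest were Mthfd2 (-1.75 ± 0.07), of mitochondrial folate metabolism, and Asns (-1.47 ± 0.07), asparagine synthetase, and the highest called was Eif2ak4 (0.43 ± 0.11), which encodes GCN2. With IL-4 Atf3 rose (0.49 ± 0.13) and Cth, of cysteine synthesis, was lowest (-0.60 ± 0.18). Atf4 itself had 0.46 ± 0.08 with LPS/IFN-γ and -0.76 ± 0.08 with TGF-β, both called. Scaled by the median alone the counts of higher and lower were 14 and 0, 0 and 12, and 0 and 0.

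**Figure D5:**
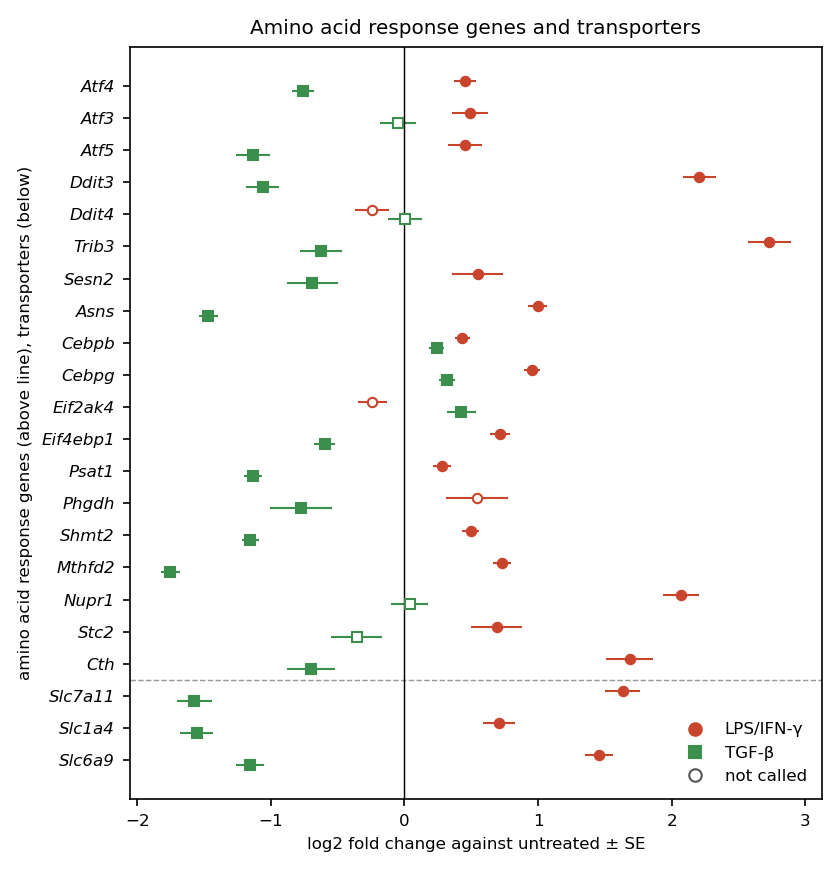
Log2 fold change against untreated ± SE (horizontal axis) with LPS/IFN-γ (circles) and TGF-β (squares) for the 19 measured amino acid response genes above the dashed line and the transporters Slc7a11, Slc1a4 and Slc6a9 below it. Filled points had adjusted p under 0.05. The 3 transporters were drawn with their directions known, to the right with LPS/IFN-γ and to the left with TGF-β. Their likeness to Asns, Trib3 and Mthfd2 was therefore fixed by the choice. Of the 19 response genes 3 rose and 12 fell with TGF-β. A link of the transporters to ATF4 was not tested. Slc1a4 with TGF-β was below background.

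Of 12 measured genes of glutamine and glutamate metabolism, 0 rose and 9 fell with TGF-β, where 19.7% of all genes rose and 19% fell. With LPS/IFN-γ 5 rose and 6 fell (21.5% and 34.3% of all genes), and with IL-4 0 rose and 3 fell (5.64% and 6.32%). The difference between treatments in these counts was not tested. Asns, which this list shares with the amino acid response, had the lowest value with TGF-β and the highest with LPS/IFN-γ (1.00 ± 0.07). Cad, the first enzyme of pyrimidine synthesis, was lowest with LPS/IFN-γ (-0.59 ± 0.08) and IL-4 (-0.61 ± 0.08). Of 16 measured genes of nucleoside and base salvage, 5 rose and 3 fell with LPS/IFN-γ, 1 and 6 with TGF-β and 2 and 2 with IL-4. Scaled by the median alone, the LPS/IFN-γ splits were 2 and 4 for the glutamine list and 3 and 3 for the salvage list, and the TGF-β split of the latter was 0 and 8 (3 and 5 with cyclic loess). Upp1, uridine phosphorylase, had 2.73 ± 0.34 with LPS/IFN-γ (adjusted p = 8.69e-06), and Nt5c2, a nucleotidase gene, had -0.95 ± 0.13. The purine oxidase gene Xdh had 0.94 ± 0.07 with IL-4 and the thymidine kinase gene Tk1 -0.77 ± 0.06. With TGF-β Dguok was highest (0.41 ± 0.08) and Ada, adenosine deaminase, lowest (-0.52 ± 0.18).

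Of 20 measured genes of lysosomal amino acid sensing, 2 rose and 11 fell with LPS/IFN-γ, beside 21.5% and 34.3% of all genes. With TGF-β 5 rose and 2 fell, beside 19.7% and 19%, and with IL-4 1 rose and 0 fell, beside 5.64% and 6.32%. Sesn1, a leucine-responsive sestrin, had -1.87 ± 0.10 with LPS/IFN-γ and 0.73 ± 0.10 with IL-4. The arginine sensor gene Castor1 had 0.98 ± 0.12 with TGF-β, where Sesn2, which the amino acid response list also holds, was lowest (-0.69 ± 0.19) and with LPS/IFN-γ highest (0.55 ± 0.19). With median scaling alone, 1 rose and 2 fell with TGF-β. Of 9 measured genes of tryptophan and branched-chain amino acid catabolism, 4 rose and 1 fell with LPS/IFN-γ, 2 and 4 with TGF-β and 1 and 0 with IL-4. Ido1, which degrades tryptophan, had 2.15 ± 0.57 with LPS/IFN-γ (adjusted p = 0.00505) and Bcat2 -0.67 ± 0.07. The amino acid oxidase gene Il4i1 had 1.42 ± 0.18 with IL-4. With TGF-β Bckdha had 0.41 ± 0.10 and Bcat1 -1.07 ± 0.08. With median scaling alone, 0 genes of this list rose and 5 fell with TGF-β.

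Transporters of amino acids and peptides outside the gene choice gave 13 measured genes, including Slc7a2 and Slc7a11, which belong to a named family but were left out. Of these 5 rose and 6 fell with LPS/IFN-γ (21.5% and 34.3% of all genes), 5 and 3 with TGF-β (19.7% and 19%) and 5 and 1 with IL-4 (5.64% and 6.32%). Tap1, a peptide pump of antigen presentation, had 4.11 ± 0.12 with LPS/IFN-γ, and the lysosomal carrier gene Slc46a3 -1.97 ± 0.11. The lysosomal sialic acid and acidic amino acid carrier gene Slc17a5 had 1.04 ± 0.11 with IL-4, 1.10 ± 0.11 with TGF-β and -0.49 ± 0.11 with LPS/IFN-γ, all called. Slc7a11 had the lowest value with both IL-4 and TGF-β. Scaled by the median alone, 2 rose and 3 fell with TGF-β and 2 rose and 1 fell with IL-4.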

How the data were processed

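Labelled RNA of 15 samples was hybridised to Illumina mouse bead arrays. The authors deposited non-normalized probe intensity on a linear scale and, per the file headers, a detection p-value for each. They also deposited log2 values in another table. Partek is named in the submitters' processing notes, with version and steps not given in the sources used here. Set against the intensities, the authors' log2 values equal quantile-normalized log2 signals with a chip effect removed (99.995% within 0.001), so the table served as an alternative only.

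Signals were background-corrected with neqc (offset 16), quantile-normalized and put on the log2 scale with limma 3.58.1 in R 4.3.3. A probe was kept with a detection p under 0.01 on 3 or more arrays, and the probe with the highest mean stood for a gene (8561 genes). Current symbols came from the platform annotation through gene IDs (34885 probes with 1 symbol, 18 with several, 10378 with none). One limma model of all 15 arrays estimated the mean of each of 4 groups, p-values were adjusted by Benjamini-Hochberg over all genes, and adjusted p under 0.05 was called. The fit was tested on simulated data. The number of arrays limits the precision (median SE against untreated 0.101). Symbols with paralogue letters (Slc6a20a, Slc28a2b) count as members, Slc7a6os does not. Figures were drawn with matplotlib 3.10.9.

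Members given array by array were called with a log2 fold change of at least 1 in size against untreated, or above background on every array of 1 group and on none of another. Other members, most of them called against untreated, were added with array values after these were seen. They were not chosen by brightness, since bright members that were not called, such as Slc38a2 and Slc15a4, were not given array by array. From context lists, the called genes with the highest and lowest change are named, and Atf4 was added. Members and lists were chosen with earlier results of these data known. Arrays lie on 3 chips, each with 1 array per treatment and 1, 3 or 2 untreated arrays. Replicate numbers were given here in the order of the samples and match the chips for treated arrays only. The deviations of same-numbered arrays correlated from -0.19 to 0.36, so the numbers were not taken as pairs.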

Additional observations from a re-analysis of the deposited data

Results flagged for a closer look

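Among the 25 measured transporters, 1 had an untreated array far from the other 5. Slc38a1, a plasma membrane glutamine carrier, read 7.78 on untreated replicate 4, where the nearest other untreated array read 8.15 and the highest 8.33, a gap of 0.69 of the whole range, which is above Dixon's critical value for 6 arrays. Chance flags about 1 in 20 groups, and 25 were tested.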

How the results depend on the processing

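The counts of called transporters with IL-4, LPS/IFN-γ and TGF-β against untreated were 5, 16 and 13. Leaving out each array gave 4 to 5, 14 to 16 and 12 to 15, and for LPS/IFN-γ against IL-4, LPS/IFN-γ against TGF-β and IL-4 against TGF-β 13 to 16, 12 to 14 and 13 to 15. With the replicate block the IL-4 count was 3, with Slc29a1 and Slc36a2 lost, and no other count moved by over 1.5 times. Pairing by number is not given by the labels. Scaling by the median alone gave 3 for IL-4, 10 for LPS/IFN-γ against IL-4 and 9 for IL-4 against TGF-β. Asking for at least 2-fold left 0, 2 and 4 against untreated, and 3, 7 and 3 between treatments. No share of all genes at that threshold is set beside these counts, so they do not set transporters apart from other genes. Among all genes, the share of calls that were higher moved with TGF-β from 50.9% to 20.2% under median scaling and with LPS/IFN-γ from 38.5% to 49.9% under cyclic loess. Each called transporter was checked in the alternatives and at its lowest and highest value over the fits that left out 1 array. None changed direction against untreated, and 545 checks kept and 33 lost the call. A call lost in any fit that left out 1 array counts as lost at both values. Counts of all called genes fell from 1024 to 345 for IL-4 under median scaling. Signals near background limit Slc1a4, Slc1a5, Slc6a13 and Slc36a2 among others, since the size of their fold changes depends on the background correction. Over the alternatives Slc29a2 with TGF-β ranged from -0.97 to -0.33, and Slc36a1 with LPS/IFN-γ from -0.34 to -0.09.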
